A study of Mus musculus with 8 samples.

Results

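The effect of busulfan on the polyadenylated transcriptome of the wild-type mouse testis was read from 4 of the 8 samples of the series. They were whole testes of adult male mice with the Tent5c wt/wt genotype. In the vehicle group, 2 mice had received a single injection of vehicle, and in the busulfan group, 2 mice had received a single injection of busulfan at 20 mg/kg. Testes of both groups were collected 4 weeks after the injection. Each sample was the RNA of a single mouse. The other 4 samples came from Tent5c dcat/dcat mice, which carry a form of the poly(A) polymerase TENT5C without catalytic activity, given the same vehicle or busulfan. RNA molecules were read directly through nanopores, so each read carried both the identity of a transcript and the length of its own poly(A) tail. The labels gave no strain for these mice. A single cohort of 2 mice per group limits what can be said about variation between animals, and 4 weeks was the only time point.

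In the adult testis, germ cells pass from spermatogonia through meiotic spermatocytes to round and then elongating spermatids inside the seminiferous tubules. Sertoli cells support them within the tubule wall, which is lined by contractile peritubular cells, while Leydig cells between the tubules make androgens and share that space with macrophages and vessels. Busulfan is an alkylating agent that kills dividing spermatogonia, so the later stages are lost as the cells that would have replaced them fail to arrive. Spermatids store many mRNAs for days before translating them, and the poly(A) tail, a run of adenosines added to the 3′ end and bound by poly(A)-binding proteins, is lengthened or trimmed along the way. The comparison asks which functions gained or lost transcripts, and which transcripts changed tail length, when germ cells were depleted.

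The wild-type samples held 50757 and 72138 reads in the vehicle mice and 66052 and 115425 in the busulfan mice. The table listed 2783 transcripts of 2302 genes. Within a group the counts of the 2 mice differed beyond sampling noise, with a chi-square per degree of freedom of 1.58 in the vehicle group and 1.29 in the busulfan group. Reads of the mitochondrial genome made up 4.82% and 4.48% of the vehicle samples and 15.4% and 14.8% of the busulfan samples. The transcript with most reads was that of Prm1, a sperm protamine, in both vehicle samples and mt-Co1, a mitochondrial subunit of cytochrome c oxidase, in both busulfan samples. Reads are given as RPM, the reads of a transcript relative to all reads of its sample, and fold changes are busulfan over vehicle from edgeR's quasi-likelihood test with TMM scaling, called at an adjusted p under 0.05 over all transcripts.

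Most of the transcriptome differed between the groups. Of 2783 transcripts, 986 (35.4%) were higher in the busulfan testes and 1067 (38.3%) were lower, so that 73.8% were called. With a single transcript standing for each gene, the one with most reads in the wild-type samples, 852 of 2302 genes were higher (37%) and 853 were lower (37.1%), which makes 74.1% called. The counts of members called in each functional group below are to be read against these shares. The table had been limited to transcripts with 10 reads in both samples of at least 1 of the 4 groups. Within wild type, 948 transcripts reached 10 reads in both mice of the vehicle group only, 1077 did so in the busulfan group only, 527 did so in both and 231 in neither. Transcripts that entered through the group where they were high had to differ, which inflates every count of calls. Some lists below were made up mostly of such members. In the vehicle group only, 10 reads were reached by 9 of 9 spermatocyte, 12 of 14 round spermatid and 20 of 21 acrosome genes. The same held for 13 of 17 outer dense fibre and fibrous sheath, 11 of 17 axoneme and 14 of 24 late spermatid genes. In the busulfan group only, they were reached by 7 of 9 steroid synthesis genes and 5 of 5 macrophage markers. The same held for 10 of 14 Leydig, 11 of 17 Sertoli, 15 of 20 lysosomal, 6 of 10 matrix and 6 of 7 MHC class I genes. The direction of such members was largely set by the filter, so counts over these lists describe them only. Because the samples were whole testes, fewer cells of a type and less RNA per cell cannot be told apart, and a rise is a rise in the share of reads.

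The transcripts that package the sperm nucleus fell deeply. Protamines and transition proteins replace histones in elongating spermatids, and the 10 chromatin genes read here fell in all 10 cases, with a median log2 fold change of -5.07. Their share of all reads was 9.21% and 10.3% in the vehicle mice and 0.363% and 0.408% in the busulfan mice. Protamine 1 (Prm1) had RPM values of 28666 and 33505 in the vehicle mice and 712 and 1126 in the busulfan mice (log2 fold change -5.08 ± 0.50 (SE), adjusted p = 5.4e-08). Transition protein 1 (Tnp1) had 17179.9 and 19601 in the vehicle mice and 303 and 667 in the busulfan mice (log2 fold change -5.20 ± 0.49 (SE), adjusted p = 5.3e-08). The second members of both families, Prm2 and Tnp2, fell by 3.87 and 5.06 on the log2 scale. For each of these 4 genes the higher busulfan mouse lay far below the lower vehicle mouse.

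Transcripts of the sperm tail also fell, but Smcp and Odf1 fell less than the median of their list. The outer dense fibres and the fibrous sheath surround the axoneme of the sperm tail, and 17 of 17 genes of these structures fell (median -4.67). Spa17 and Ropn1l, which belong to proteins of the fibrous sheath, had log2 fold changes of -4.10 and -4.13. Smcp, a cysteine-rich protein of the sperm mitochondrial capsule, had RPM values of 4098 and 3646 in the vehicle mice and 1665 and 2729 in the busulfan mice (log2 fold change -0.81 ± 0.34 (SE), adjusted p = 0.033). Odf1, a main protein of the outer dense fibres, had 3487 and 3839.9 in the vehicle mice and 1241 and 1967 in the busulfan mice (log2 fold change -1.19 ± 0.34 (SE), adjusted p = 0.0031). Oaz3, a spermatid antizyme of ornithine decarboxylase, had 3152 and 1580.3 in the vehicle mice and 742 and 1369 in the busulfan mice (log2 fold change -1.13 ± 0.41 (SE), adjusted p = 0.016). The groups did not overlap for these 3 genes, and the second busulfan mouse was above the first for each. Their calls rested on single mice. When a mouse was left out, the other of its group was assumed to vary like the remaining groups. Smcp lost its call without the first or the second vehicle mouse (adjusted p = 0.16 and 0.14) and without the first busulfan mouse (0.37), Oaz3 without the first mouse of either group (0.40 for vehicle and 0.23 for busulfan), and Odf1 without the first busulfan mouse (0.087). The late spermatid markers include genes given above, such as Prm1, Tnp1, Smcp, Odf1 and Oaz3. Among all 24 late spermatid markers read, 23 fell with a median of -4.34, and their share of all reads was 12.4% and 13.4% in the vehicle mice and 1.03% and 1.42% in the busulfan mice. The exception was Tppp2, a spermatid tubulin-binding protein named here after its values were seen, with a log2 fold change of -0.83 (adjusted p = 0.078).

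Of 17 axoneme genes, 15 fell, with a median of -3.93. Meig1, needed to build the sperm flagellum, had RPM values of 4118 and 4173 in the vehicle mice and 227 and 234 in the busulfan mice (log2 fold change -4.19). Tubb4b, a beta-tubulin that is also made outside the germ line, fell less, at -1.79. All 21 acrosome and egg-binding genes read fell (median -4.87), among them Adam3 (-4.39), a sperm surface protein needed to reach the egg, and Dkkl1 (-5.07), a protein of the acrosome. Crisp2, which belongs to the acrosome and tail, fell less, at -1.56 ± 0.37 (SE). Several transcripts of Crisp2 were listed, and reads could have been divided among them.

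Markers of earlier stages fell as well. Each of the 14 round spermatid markers read fell, with a median of -5.20, or -4.47 when a transcript without reads in a group is set at the bound that 3 reads allow. Their share of all reads was 1.08% and 1.06% in the vehicle mice and 0.0560% and 0.0554% in the busulfan mice. Actl7b, an actin-like protein of the spermatid head, had raw read counts of 62 and 103 in the vehicle mice and 0 and 7 in the busulfan mice (log2 fold change -5.10). Tssk2, a spermatid kinase, fell by 3.87 and Gsg1, a testis-specific membrane protein, by 3.18 on the log2 scale. All 9 spermatocyte markers read fell (median -3.27), but each reached 10 reads in the vehicle group only, so their direction was largely set by the filter. Their combined share of reads was 0.802% and 0.782% in the vehicle mice and 0.0712% and 0.0849% in the busulfan mice. Mael, which protects the germline genome from transposons, had raw reads of 58 and 57 in the vehicle mice and 7 and 8 in the busulfan mice (log2 fold change -3.52 ± 0.51 (SE), adjusted p = 3.0e-06). Hspa2, a meiotic HSP70 chaperone, had 35 and 58 in the vehicle mice and 8 and 12 in the busulfan mice (log2 fold change -2.77 ± 0.47 (SE), adjusted p = 1.9e-05). Among 17 spermatogonial markers, only Uchl1 was listed. This ubiquitin hydrolase, also made by other cells of the body, had raw reads of 2 and 5 in the vehicle mice and 18 and 19 in the busulfan mice (log2 fold change 1.81 ± 0.71 (SE), adjusted p = 0.024). Its call was lost with DESeq2 (adjusted p = 0.081) and without the first vehicle or busulfan mouse (0.076 and 0.090). The spermatogonia themselves, the cells that busulfan kills, were hardly covered at this depth.

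Spermatid energy metabolism fell with the structural genes. Germ cells make their own forms of glycolytic enzymes, and 13 of 19 genes listed for germ cell glycolysis and glycerol use fell, while 4 rose (median -3.84). The sperm lactate dehydrogenase Ldhc had RPM values of 6541 and 7084 in the vehicle mice and 257 and 303 in the busulfan mice (log2 fold change -4.61 ± 0.44 (SE), adjusted p = 5.3e-08). Pgk2, the spermatid phosphoglycerate kinase, had 1379 and 1871 in the vehicle mice and 318 and 364 in the busulfan mice (log2 fold change -2.28 ± 0.38 (SE), adjusted p = 1.5e-05). The groups did not overlap for either gene. The 4 members that rose, Pkm, Pgam1, Aldoa and Slc16a1, are forms that other tissues use too, with log2 fold changes from 1.65 to 4.29; they are named here after their values were seen.

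The list of poly(A) tail factors held genes that bind or extend tails and others. None of the 11 read rose and 10 fell, with a median of -3.81. Pabpc1, the main cytoplasmic poly(A)-binding protein, had RPM values of 2305 and 3382 in the vehicle mice and 560.2 and 546 in the busulfan mice (log2 fold change -2.41 ± 0.39 (SE), adjusted p = 1.2e-05). Pabpn1, the nuclear poly(A)-binding protein, and Papolb, a testis poly(A) polymerase, fell as well, with log2 fold changes of -3.81 and -4.33. The list also held Btg1 (-1.78) and Tob1 (0.56, adjusted p = 0.35), which are known to promote removal of tails, and Ybx2, Ybx3 and Cpeb2, which bind mRNA. Pabpn1, Papolb, Btg1, Tob1, Ybx2 and Cpeb2 are named here after their values were seen. The testis form Pabpc2 fell by 4.56 and Ybx3, a Y-box protein that binds stored mRNA, fell by 4.50 on the log2 scale. Tent5c, which encodes the poly(A) polymerase that the series was built around, had raw reads of 42 and 56 in the vehicle mice and 18 and 31 in the busulfan mice (log2 fold change -1.60 ± 0.41 (SE), adjusted p = 0.0012). The values of Tent5c did not overlap in RPM.

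Chaperones moved in both directions. Of 26 heat shock proteins and chaperonins, 15 fell and 5 rose (median -0.97). Dnajb3, a testis co-chaperone, had RPM values of 2009.6 and 2481 in the vehicle mice and 45.4 and 86.6 in the busulfan mice (log2 fold change -4.99 ± 0.56 (SE), adjusted p = 1.7e-07). Hsp90aa1, the HSP90 form abundant in germ cells, had 1084 and 1137 in the vehicle mice and 348 and 303 in the busulfan mice (log2 fold change -1.82 ± 0.37 (SE), adjusted p = 1.2e-04), while its paralog Hsp90ab1 had 158 and 194 in the vehicle mice and 1045 and 1022 in the busulfan mice (log2 fold change 2.48 ± 0.43 (SE), adjusted p = 2.2e-05). Tcp1, a chaperonin subunit, had a log2 fold change of -2.50. The other genes that rose were Hspa8, Hspb1, Hspe1 and Hspd1, chaperones used by most cells, with log2 fold changes from 2.66 to 3.21, named here after their values were seen.

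Paralogs of a single function were set side by side. After the values were known, 20 pairs of a germ cell gene and its widely expressed relative were drawn up, so they carry no test of their own. The germ cell member was lower in the busulfan testes in 20 of 20 pairs. The widely expressed member was higher in 16 pairs, lower in 2 (Dnajb1 and Pabpc1) and not called in 2 (Cct6a and Actb). Of the reads of Ldhc and Ldhb, Ldhc held 96.8% and 97.3% in the vehicle mice and 13% and 13.2% in the busulfan mice. Gapdhs, the spermatid glyceraldehyde-3-phosphate dehydrogenase, is a relative of Gapdh, and its share of that pair was 90.3% and 96.8% in the vehicle mice and 10.2% and 6.74% in the busulfan mice. The ribosomal protein Rpl39l, a testis form of Rpl39, had a share of 92.3% and 91.8% in the vehicle mice and 4.76% and 16.4% in the busulfan mice. The germ cell share stayed higher in other pairs. With Pgk1, Pgk2 had a share of 97.2% and 98.5% in the vehicle mice and 44.7% and 70.0% in the busulfan mice. Next to Oaz1, Oaz3 had a share of 93.0% and 91.2% in the vehicle mice and 57.6% and 70.9% in the busulfan mice. The germ cell share did not overlap between the groups in any of the 20 pairs, which is a description of pairs chosen with their values known. Lack of overlap was common in these samples. In RPM it held for 72 of 84 ribosomal protein genes and for 18 of 28 translation factors. It also held for 27 of 28 actin and tubulin genes and 25 of 26 genes of folding in the endoplasmic reticulum. The share over all transcripts is not given here, so the count of pairs cannot be set against it.

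**Figure D1:**
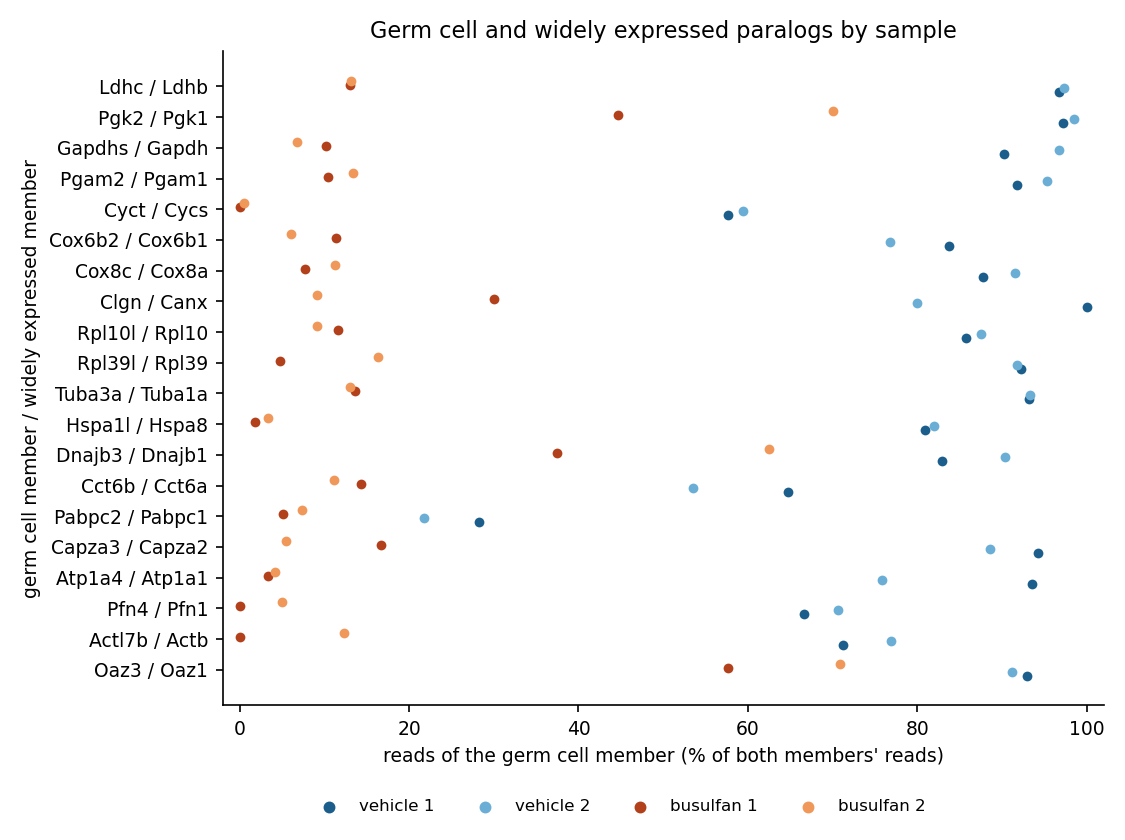
Share of the germ cell member in the reads of 20 paralog pairs, in percent, with a point for each of the 4 wild-type samples. Vehicle samples (blue) lie to the right of busulfan samples (orange and brown) in every pair, and Pgk2, Dnajb3 and Oaz3 keep larger shares in the busulfan samples than the others.

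The transcripts of Leydig cells rose. Of 14 markers read, 13 rose and none fell (median 3.15), and their combined share of reads was 0.652% and 0.743% in the vehicle mice and 5.56% and 5.95% in the busulfan mice. Insl3, the peptide hormone of Leydig cells, had RPM values of 4059 and 4186 in the vehicle mice and 31521 and 36361 in the busulfan mice (log2 fold change 3.01 ± 0.35 (SE), adjusted p = 2.3e-07). Ptgds, a prostaglandin D synthase, had 335 and 485 in the vehicle mice and 3861 and 4133 in the busulfan mice (log2 fold change 3.22 ± 0.37 (SE), adjusted p = 2.5e-07). Both busulfan mice lay well above both vehicle mice for each gene. All 9 steroid synthesis genes read were higher (median 3.29). Several of them, such as Star, Cyp11a1, Cyp17a1 and Hsd3b6, are also among the Leydig markers, so these counts are not separate. Star, which carries cholesterol into mitochondria, had raw reads of 5 and 3 in the vehicle mice and 57 and 133 in the busulfan mice (log2 fold change 3.89 ± 0.56 (SE), adjusted p = 2.9e-06). Cyp11a1 and Cyp17a1, which take the first steps from cholesterol towards androgens, rose by 3.39 and 2.90, and Hsd3b6, a hydroxysteroid dehydrogenase of Leydig cells, by 3.56 on the log2 scale. In cholesterol synthesis and handling, 8 of 13 genes rose and 1 fell. The genes with most reads were the lipoproteins Apoe (3.22) and Apoc1 (2.92), the lysosomal cholesterol carrier Npc2 (4.09) and the sterol demethylase Cyp51, whose log2 fold change of 0.49 had an adjusted p of 0.37. Fdft1, squalene synthase, was the gene that fell (-1.96), named here after its values were seen.

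Sertoli cell transcripts rose too. Of 17 markers read, 16 rose and 1 fell (median 2.91), and their combined share of reads was 0.550% and 0.542% in the vehicle mice and 4.33% and 4.24% in the busulfan mice. Clu, the secreted chaperone clusterin, had RPM values of 1162 and 1219.9 in the vehicle mice and 12475 and 12779 in the busulfan mice (log2 fold change 3.36 ± 0.34 (SE), adjusted p = 6.7e-08). Aard, a Sertoli cell transcript, had raw reads of 11 and 24 in the vehicle mice and 198 and 359 in the busulfan mice (log2 fold change 3.39 ± 0.40 (SE), adjusted p = 2.5e-07). Defb19, a defensin, rose by 2.31, and Ctsl, a secreted cathepsin, by 3.55 on the log2 scale. Ctsl was listed with a second transcript that rose by 3.51. The gene that fell was Cst8, a cystatin that germ cells also make, named here after its values were seen, with raw reads of 35 and 25 in the vehicle mice and 10 and 18 in the busulfan mice (log2 fold change -1.73). Lcn2, an iron-siderophore carrier outside these lists, rose by 3.93, and Timp2, an inhibitor of matrix proteases, by 3.24 (adjusted p = 1.1e-07 and 1.5e-06).

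Other somatic cells were covered by few markers. Of 4 peritubular genes read, 3 rose and 1 fell. The contractile proteins Acta2 and Myl9 rose by 2.41 and 3.0, while Actg2, a smooth muscle actin, had raw reads of 22 and 28 in the vehicle mice and 2 and 3 in the busulfan mice (log2 fold change -3.84 ± 0.65 (SE), adjusted p = 1.7e-05). All 5 macrophage and MHC class II markers read rose. The lysozyme gene Lyz2 had raw reads of 3 and 2 in the vehicle mice and 33 and 67 in the busulfan mice (log2 fold change 3.64 ± 0.61 (SE), adjusted p = 1.5e-05), and the class II invariant chain Cd74 had 2 and 2 in the vehicle mice and 15 and 32 in the busulfan mice. The complement gene C1qc rose by 2.67 and Lgmn, a lysosomal protease, by 3.85. All 7 MHC class I and interferon response genes read rose (median 2.99), led in reads by B2m, the class I light chain (2.75), and the class I heavy chains H2-D1 (3.39) and H2-K1 (2.85). The globins Hbb-bs and Hba-a2 rose by 1.68 and 1.92. Raw reads of Hbb-bs were 7 and 16 in the vehicle mice and 48 and 61 in the busulfan mice. Hba-a2 has a near-identical copy, so its reads are uncertain, and its call was lost with DESeq2 (adjusted p = 0.16), without the first vehicle mouse (0.070) and without the second busulfan mouse (0.13). Among 13 endothelial markers only Ly6e was listed, with a log2 fold change of 3.71, and it also belongs to the interferon response. Of 26 genes of the p53 and DNA damage response only Phlda3 was listed. It had no reads in the vehicle mice and 10 and 11 in the busulfan mice, which is at least 2.45-fold higher when the vehicle group is set at the bound of 3 reads per sample.

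Lysosomal and matrix genes rose too, but their lists are not separate from those above. Ctsl is also counted among the Sertoli markers, Lgmn among the macrophage markers and Npc2 among the cholesterol genes. Of 20 lysosomal genes, 17 rose and none fell (median 3.20), and their share of reads was 0.343% and 0.309% in the vehicle mice and 2.25% and 2.28% in the busulfan mice. Ctsb, a cathepsin, had RPM values of 158 and 55.4 in the vehicle mice and 1393 and 1473 in the busulfan mice (log2 fold change 3.79 ± 0.52 (SE), adjusted p = 1.8e-06), and Gm2a, an activator of ganglioside breakdown, rose by 3.17. Laptm4a, a lysosomal membrane protein, did not pass the test, with a log2 fold change of 0.63 (adjusted p = 0.15). Of 10 extracellular matrix genes, 9 rose (median 2.81), including Sparc (2.82), Igfbp7 (2.80) and the protease inhibitor Cst3 (2.54). In the glutathione and redox group, 16 of 31 genes rose and 6 fell (median 1.35). The glutathione transferases Gstm1 and Gstm2 rose by 2.35 and 2.56, while Gstm5, a form abundant in testis, had RPM values of 2423 and 1456 in the vehicle mice and 757 and 1187 in the busulfan mice (log2 fold change -0.98 ± 0.38 (SE), adjusted p = 0.024). The call on Gstm5 was lost without the first vehicle or busulfan mouse (adjusted p = 0.37 and 0.27). The Gstm genes are close relatives, so their division of reads is uncertain. Sod1, the cytosolic superoxide dismutase, rose by 1.35.

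Groups of genes used by all cells had medians nearer 0. All 11 mitochondrially encoded genes were higher (median 1.47), led by mt-Co1 at 1.93 ± 0.29 (SE), with RPM values of 14638 and 12227 in the vehicle mice and 54926 and 50795 in the busulfan mice. Of 82 nuclear genes of oxidative phosphorylation, 26 rose and 8 fell, with a median of 0.50. Cox6a1 rose by 1.49, Cox6c had a log2 fold change of 0.47 (adjusted p = 0.20), and Cox7a2 fell by 1.19. Each encodes a subunit of cytochrome c oxidase. The call on Cox7a2 was lost without the second vehicle mouse (adjusted p = 0.11), and the 26 genes that rose became 14 with DESeq2 and 15 without the second busulfan mouse. Among 26 genes of translocation and folding in the endoplasmic reticulum, 15 rose and 3 fell (median 1.29), becoming 7 that rose with DESeq2 and 8 without the second busulfan mouse. The chaperones Hsp90b1 and Calr were at 1.47 and 1.38. Translation factors (5 up and 4 down of 28), proteasome and ubiquitin genes (19 up and 12 down of 51) and actin and tubulin genes (12 up and 12 down of 28) were mixed. With DESeq2, 1 translation factor and 8 proteasome and ubiquitin genes rose, and without the second busulfan mouse 2 and 9 did. The translation factors that rose were 3 without the first vehicle mouse, and those that fell were 7 with RLE scaling and 2 without the second vehicle mouse. Within the last group, actin and tubulin, Tmsb4x, an actin-binding thymosin, rose by 3.40, and its paralog Tmsb10 fell by 1.85 for the transcript counted in the list and by 3.91 for another, which can share its reads. Tuba3a and Tuba3b, the testis alpha-tubulins, share most of their sequence, and reads assigned to either are uncertain.

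Ribosomal protein genes formed the widest group. Of 84 read, 41 rose and 4 fell (median 0.79), and their share of reads was 7.47% and 7.78% in the vehicle mice and 12% and 11.3% in the busulfan mice. Rplp1, a stalk protein of the large subunit, had RPM values of 1852 and 1414 in the vehicle mice and 3543 and 3630.1 in the busulfan mice (log2 fold change 1.10 ± 0.32 (SE), adjusted p = 0.0037). Rpl41, Rplp0 and Rps29 had log2 fold changes of 0.15, 0.40 and 0.61, with adjusted p-values of 0.67, 0.26 and 0.086. The 4 genes that fell were Rpl39l, Rpl10l, Rpl22l1 and Rps24, of which the first 3 are known as paralogs of standard ribosomal proteins; they are named here after their values were seen. The 41 that rose became 23 with DESeq2 and 20 without the second busulfan mouse, and the 4 that fell became 2 without either vehicle mouse. Promoters were searched for the letters CTTCCGG, the core of an ETS-type motif, on both strands (CCGGAAG on the other), in RefSeq windows from 250 bases before to 50 after the start of transcription (build GRCm38.p6). It was found in 25 of the 62 ribosomal genes with a window (40.3%), against 9.93% of all 27025 genes. None of 9 sperm chromatin genes and none of 19 late spermatid genes held it. Groups that moved in both directions held it about as often as the ribosomal genes, with 38.1% of translation factors, 36.6% of proteasome and ubiquitin genes and 33.3% of heat shock proteins and chaperonins. Among groups that mostly rose, none of 9 Leydig, 12 Sertoli and 8 matrix genes held it. In others that mostly rose, 2 of 8 cholesterol, 4 of 20 ER and 1 of 16 lysosomal genes did. Groups this small allow no ranking. TGACG, the core of a cAMP response element, was found on either strand in 23% of all 27025 genes, in 32 of the 62 ribosomal ones and in Ldhc. Other groups held it about as often, with 57.1% of heat shock proteins and chaperonins, 51.2% of proteasome and ubiquitin genes and 45% of ER genes. It was rarer in round spermatid genes (7.69%), and none of 12 Sertoli genes held it. The other germ cell groups ranged from 18.8% (germ cell glycolysis) to 38.5% (axoneme). Both motifs hold the letters CG, and overlaps between their matches were not counted apart. Parts of 3 windows are shown with the matches in capitals. Those of Rps21 (1.24) and Rps25 (0.84) belong to ribosomal genes that rose and were chosen because they held a match. The window of Rpl41, whose reads were not called, held a match too and is not shown. The other window is that of Ldhc, which fell. A match describes the letters alone.

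Rps25 (chr9:44407596-44407692, plus strand): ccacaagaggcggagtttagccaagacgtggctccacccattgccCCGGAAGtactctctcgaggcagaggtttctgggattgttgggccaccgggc
Rps21 (chr2:180257246-180257404, plus strand): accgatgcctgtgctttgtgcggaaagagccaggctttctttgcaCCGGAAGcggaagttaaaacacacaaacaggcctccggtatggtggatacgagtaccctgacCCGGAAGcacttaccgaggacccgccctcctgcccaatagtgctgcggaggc
Ldhc (chr7:46861157-46861265, plus strand): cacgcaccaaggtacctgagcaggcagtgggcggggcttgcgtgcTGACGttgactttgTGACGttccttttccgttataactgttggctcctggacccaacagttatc

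**Figure D2:**
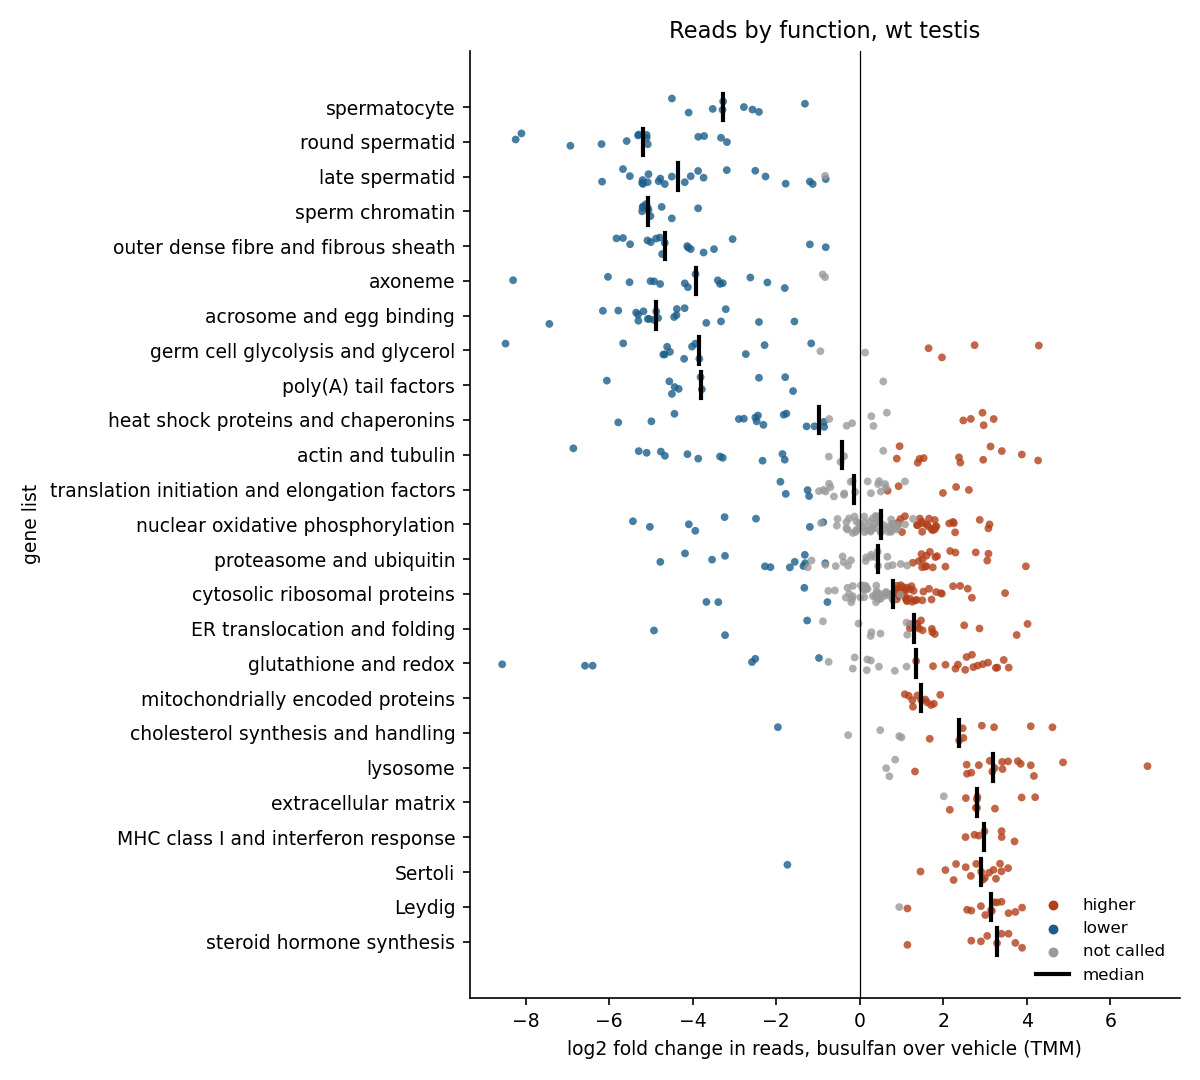
Log2 fold change in reads (busulfan over vehicle, TMM scaling) for the genes of each functional group, with a point per gene and a black bar at the median. Genes higher in the busulfan testes are red, genes lower are blue and those not called are grey. Medians of germ cell groups lie left of 0, and those of Leydig, Sertoli, lysosomal and steroid groups right of it. Medians of shared functions run from -0.97 (heat shock proteins and chaperonins) to 1.47 (mitochondrially encoded genes).

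Poly(A) tails were shorter over all reads of the busulfan testes. The mean tail of a sample, in nucleotides (nt), was 139 and 141 in the vehicle mice and 112 and 115 in the busulfan mice. The difference of -25.9 nt was larger than the spread within the groups, whose SDs were 1.39 and 2.37 nt, but the two-sided exact permutation test of 2 against 2 mice cannot give less than p = 0.333, which it gave. The distribution changed shape more than the mean did. The most frequent tail length, in bins of 10 nt, was centred at 165 and 175 in the vehicle mice and 65.0 and 65.0 in the busulfan mice, and the median moved from 147 in both vehicle mice to 95.8 and 99.5 nt. Reads with 30 to 120 nt were 36.0% of the first and 35.1% of the second vehicle mouse, with 95% Wilson intervals of 35.6 to 36.4 and of 34.7 to 35.4. In the busulfan mice they were 58.7% (58.4 to 59.1) and 57.0% (56.7 to 57.2). The share with 120 to 210 nt, in percent, was 53.6 and 53.7 in the vehicle mice and 30.8 and 31.9 in the busulfan mice. These intervals cover counting error within a sample only.

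**Figure D3:**
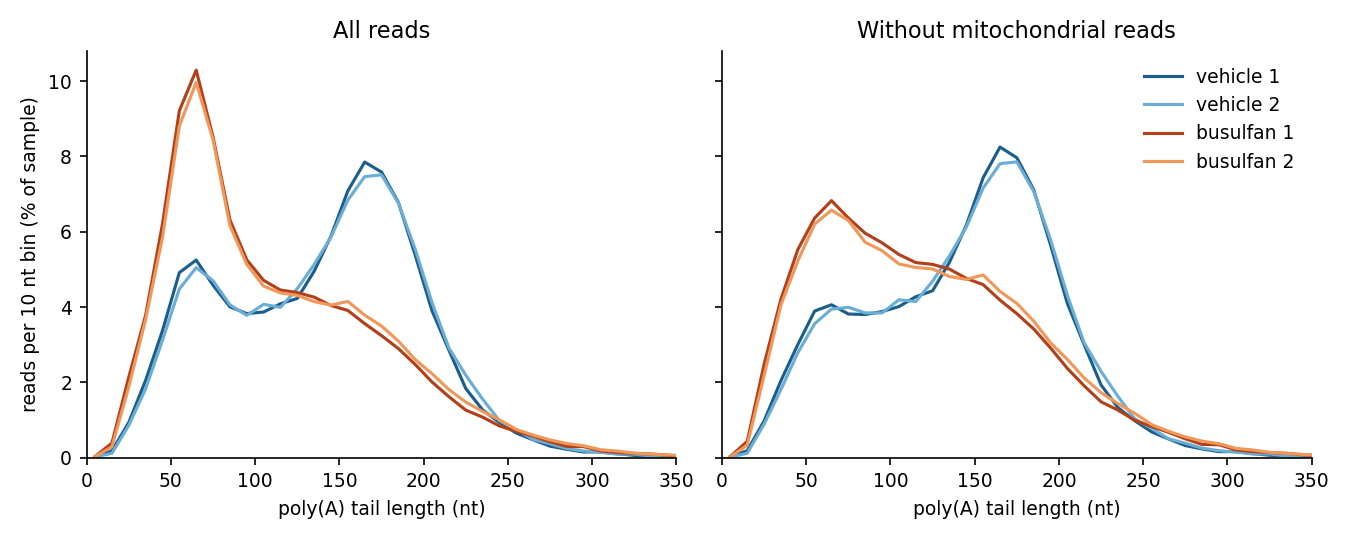
Distribution of poly(A) tail lengths in bins of 10 nt, as percent of the reads of each of the 4 wild-type samples, over all reads (left) and without mitochondrial reads (right). The vehicle samples peak near 165 to 175 nt and the busulfan samples at 65 nt, in both panels.

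By arithmetic, the shift was split into a part from changed shares of reads and a part from changed mean tails within transcripts. How much of the part within transcripts goes with a change in the mix of cells was not tested. Of a shift of -25.6 nt over the 2694 transcripts read in both groups, changed shares of reads gave -10.03 nt (39.1%) and changed tails within transcripts -15.6 nt (60.9%). Mitochondrial transcripts, whose tails are short, rose in share. Without them the shift was -20.8 nt, of which -3.79 nt came from shares and -17.0 nt (81.8%) from tails within transcripts. When at least 10 reads in each sample were also asked for, shares gave 0.89 nt and tails within transcripts -19.7 nt. Mitochondrial reads themselves had mean tails of 65.7 and 66.7 in the vehicle mice and 66.3 and 67.1 in the busulfan mice. The transcripts that entered through a single group are given for description. The median of their mean tails was 154 nt for the 948 with 10 reads only in the vehicle group and 125 nt for the 1077 with 10 reads only in the busulfan group. The 527 measured in both had a median of 133 nt in the vehicle and 111 nt in the busulfan testes.

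Mean tails of the 527 transcripts with 10 reads or more in every wild-type sample were compared with limma, and p-values were adjusted over all of them. Tails were shorter in the busulfan testes for 206 (39.1%) and longer for 3 (0.569%), so that 39.7% were called, and the median difference was -19.9 nt. With the multiplexed library, which joins a mouse of each group, as a block, 5 were longer and 209 were called in all. When a mouse was left out, its group held a single sample and the spread came from the 2 mice of the other group, on which the p-values of those fits rest. Without the first busulfan mouse 123 were called, and the longer tails numbered between 1 and 12 as each mouse was left out, with 1 left without the first vehicle mouse and 12 without the second. Tail and read changes were not spread evenly. Of 123 transcripts whose reads fell, 80 had shorter tails (65.0%), with a median difference of -34.2 nt. Of 124 whose reads rose, 24 had shorter tails (19.4%), with a median of -8.12 nt. Among the 280 without a call on reads, 102 were shorter (36.4%), with a median of -21.3 nt. The 37 transcripts that rose beyond a log2 fold change of 2 had a median tail difference of 0.83 nt, with 3 shorter and 2 longer. These counts are descriptions, since reads and tails come from the same 4 mice.

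**Figure D4:**
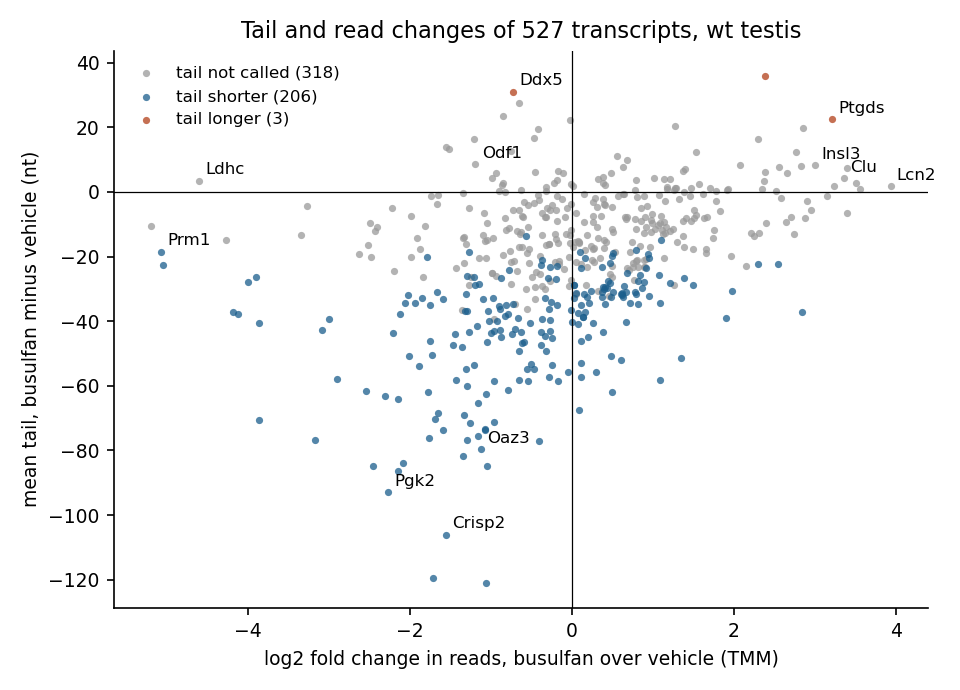
Difference in mean tail (nt, busulfan minus vehicle) against the log2 fold change in reads for the 527 transcripts tested for tails, with a point per transcript. The 206 shorter tails (blue) lie mostly among transcripts whose reads fell or were not called, while Insl3, Clu and Lcn2 at the right lie near 0.

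The 3′ ends of the transcripts that the tail results turn on are shown as the last 30 bases before the tail in the GENCODE annotation (build GRCm38), with the poly(A) signal AATAAA or ATTAAA in capitals. The stretch of Ldhc was moved slightly upstream and stops just short of the last base. Crisp2, Pgk2 and Oaz3 were among the 10 transcripts with the deepest called shortening, Prm1 and Rplp1 shortened less, Ldhc and Odf1 did not pass the test, and Insl3, Clu and Ptgds are somatic transcripts that rose.

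Crisp2 (chr17:40764734-40764763, minus strand): ttctttcAATAAAgaactcaagctaccaca
Pgk2 (chr17:40207015-40207044, minus strand): ctATTAAAgaagtgagctaagtaagttgaa
Oaz3 (chr3:94433387-94433416, minus strand): tcctaggaAATAAAgggtagtgcaatcaaa
Prm1 (chr16:10796326-10796355, minus strand): cctgtcAATAAAtgttgaaaactcatccca
Rplp1 (chr9:61913284-61913313, minus strand): ttaagttggctAATAAAgagctgaacctgt
Ldhc (chr7:46878112-46878141, plus strand): gtATTAAAggcaaccaccaccaggcccagc
Odf1 (chr15:38226706-38226735, plus strand): gtaggaaacttaatacagaattgcatctga
Insl3 (chr8:71690546-71690575, plus strand): ccaaaaagtctaAATAAAaaagcaacttca
Clu (chr14:65981518-65981547, plus strand): aatccAATAAAagccgccttgcgatacgtg
Ptgds (chr2:25466709-25466738, minus strand): caaagaAATAAAagtccaaagcaagtcaga

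Both transcripts with deeply shortened tails and those without held a signal, and Odf1 held neither form in this stretch. Over the last 40 bases of annotated nuclear transcripts, AATAAA was found in 63.3% of 2727, in 66.1% of the 962 that rose and in 59.3% of the 1046 that fell. It was found in 65.4% of the 205 whose tails were shorter, against 66.5% of the 514 tested.

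The spermatid transcripts Crisp2, Pgk2 and Oaz3 were among those with the deepest called shortening. Only transcripts that kept 10 reads in every mouse could be tested, so those lost from the busulfan testes are not covered. Crisp2 had mean tails of 149.7 and 163 in the vehicle mice and 54.9 and 46.1 in the busulfan mice (-106 ± 7.64 nt (SE), adjusted p = 4.0e-06), and a second Crisp2 transcript, which can share its reads, differed by -119.4 nt. Pgk2 had tails of 158 and 166 in the vehicle mice and 73.6 and 64.8 in the busulfan mice (-92.9 ± 7.56 nt (SE), adjusted p = 6.9e-06). Oaz3 had 143 and 149 in the vehicle mice and 68.6 and 63.9 in the busulfan mice (-79.5 ± 5.87 nt (SE), adjusted p = 4.0e-06). The deepest changes were picked among called transcripts whose groups did not overlap, so the separation of these 3 adds no support. The other deep changes were on a transcript without a gene name in the files, ENSMUST00000229623 (-120.8 nt), the testis transcripts 4930453N24Rik (-86.3 nt) and 1700009N14Rik (-83.7 nt), the small heat shock protein Hspb9 (-84.9 nt for the transcript with the larger change and -46.1 nt for the other), the ubiquitin ligase Rnf138 (-84.8 nt) and the acyl-CoA synthetase Acsl1 (-81.8 nt). Crisp2 was 2.96-fold lower in reads by the fit, and Oaz3 2.18-fold lower.

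Other spermatid transcripts shortened less or did not pass the test. Of 10 late spermatid markers tested, 7 were shorter, and of 4 sperm chromatin genes 3 were, against 38.8% of the 469 genes tested. After each sample was centred on its median over transcripts, 2 of the 10 were shorter and 0 of the 4. Without the trend in eBayes, 1 of the 4 sperm chromatin genes was shorter. Prm2 had tails of 145 and 147 in the vehicle mice and 93.1 and 118 in the busulfan mice (-40.6 ± 5.82 nt (SE), adjusted p = 4.2e-04), while those of Prm1 differed by -18.5 nt and those of Tnp2 by -22.6 nt. The call on Prm1 was lost without the first or second vehicle mouse (adjusted p = 0.15 and 0.24). Smcp had 159 and 159.8 in the vehicle mice and 131 and 118 in the busulfan mice (-34.9 ± 5.22 nt (SE), adjusted p = 5.3e-04). In contrast Ldhc, whose reads fell by 4.61 on the log2 scale, had tails of 138 and 139 in the vehicle mice and 143 and 142 in the busulfan mice (3.48 ± 4.46 nt (SE), adjusted p = 0.58). Odf1 had 182 and 177 in the vehicle mice and 185 and 191 in the busulfan mice (8.56 ± 5.0 nt (SE), adjusted p = 0.20). For Odf1 both busulfan mice lay above both vehicle mice, without passing the test. It passed when the median tail of a sample was compared (24.7 nt, adjusted p = 0.030) or the fit was weighted by reads (10.5 nt, 0.045). Tnp1 had 139 and 140.0 in the vehicle mice and 140.4 and 118 in the busulfan mice (-10.5 ± 5.66 nt (SE), adjusted p = 0.16), with the first busulfan mouse above both vehicle mice. In the germ cell glycolysis group 3 of 6 tested genes were shorter. Tent5c itself had tails of 171 and 169 in the vehicle mice and 140.1 and 133 in the busulfan mice (-33.3 ± 9.11 nt (SE), adjusted p = 0.014), on between 18 and 56 reads a sample. That call was lost without either vehicle mouse or the second busulfan mouse (adjusted p from 0.055 to 0.072).

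Few somatic markers passed the test on tails. Of 4 Leydig genes tested, 1 was longer, against 0.64% of all genes tested, and none was shorter, and of 6 Sertoli genes 1 was shorter, Cst8 (-50.4 nt), the same gene whose reads fell. Insl3 had mean tails of 168 and 183 in the vehicle mice and 181 and 187 in the busulfan mice (8.18 ± 3.97 nt (SE), adjusted p = 0.13), and Clu had 188 and 191 in the vehicle mice and 191 and 197 in the busulfan mice (4.36 ± 3.34 nt (SE), adjusted p = 0.33). Neither difference passed the test. That of Insl3 passed with the library as a block (adjusted p = 0.0024), and its adjusted p ranged from 1.2e-06 to 0.93 as each mouse was left out, fits in which a group held 1 mouse. Ptgds had 156 and 178 in the vehicle mice and 189.8 and 189 in the busulfan mice (22.5 ± 6.52 nt (SE), adjusted p = 0.018), so both busulfan mice were above both vehicle mice, but the call was lost without the first vehicle mouse (11.7 nt, adjusted p = 0.076) and with the median tail (0.20). The other longer tails were on Ddx5, an RNA helicase (31.0 nt, adjusted p = 0.027, lost without either vehicle mouse or the first busulfan mouse, at 0.21, 0.10 and 0.33), and Jak3, a cytokine receptor kinase (35.8 nt, adjusted p = 5.0e-04). The listed Jak3 transcript overlaps Insl3 in its last exon, so its reads are uncertain. Cyp17a1 (-2.89 nt), Lcn2 (1.71 nt), Ctsl (0.830 nt) and Timp2 (1.72 nt), whose reads all rose, did not pass the test on tails. Cst3, a secreted protease inhibitor, rose in reads but had a tail difference of -22.3 nt (adjusted p = 0.0069, and 0.093 without the first busulfan mouse).

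Among genes used by most cells, groups differed in how many tails were shorter. Of 72 ribosomal protein genes tested, 44 were shorter, against 38.8% of all genes tested, and none longer, with a median difference of -23.1 nt against -19.7 nt over all genes tested. Over all their reads, tails averaged 114 and 116 in the vehicle mice and 90.1 and 92.7 in the busulfan mice. Rpl41 had 112 and 122 in the vehicle mice and 81.7 and 89.3 in the busulfan mice (-31.7 ± 5.44 nt (SE), adjusted p = 0.0012), Rplp0 differed by -30.1 nt, and Rplp1 by -14.9 nt. After each sample was centred on its median over transcripts, 1 of the 72 was shorter and 1 longer, with a median of 0.15 nt. The 44 became 28 without the trend in eBayes and 18 without the first busulfan mouse, and the call on Rplp1 was lost without it (adjusted p = 0.14), without the second (0.076) and without the first vehicle mouse (0.052). Eef1a1, the elongation factor that brings aminoacyl-tRNA to the ribosome, had tails of 139.9 and 143 in the vehicle mice and 109 and 111 in the busulfan mice (-31.1 ± 3.86 nt (SE), adjusted p = 1.4e-04), and Eef2, the translocation factor, differed by -45.0 nt. Sod1 had 147 and 146 in the vehicle mice and 92.4 and 98.4 in the busulfan mice (-51.5 ± 5.55 nt (SE), adjusted p = 4.9e-05), although its reads rose. Of 45 nuclear genes of oxidative phosphorylation tested, 15 were shorter (median -17.6 nt), or 9 without the first busulfan mouse and 8 without the second vehicle mouse, as were 5 of 15 translation factors and 5 of 15 proteasome and ubiquitin genes. Each of these 3 counts is a smaller share than the 38.8% of all genes tested. The 5 translation factors became 3 without the first vehicle mouse, and the 5 proteasome and ubiquitin genes became 3 without the second busulfan and 2 without the second vehicle mouse. After centring, 1 gene of these 3 groups was shorter, in the proteasome and ubiquitin group. Such genes are used in germ and somatic cells alike, whose transcripts moved in opposite directions in these samples as given above, and the part of that change in the tail differences was not tested. Mitochondrially encoded transcripts differed by a median of 0.985 nt, and none of the 10 tested passed, with mt-Co1 tails of 69.9 and 70.9 in the vehicle mice and 70.8 and 71.7 in the busulfan mice.

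**Figure D5:**
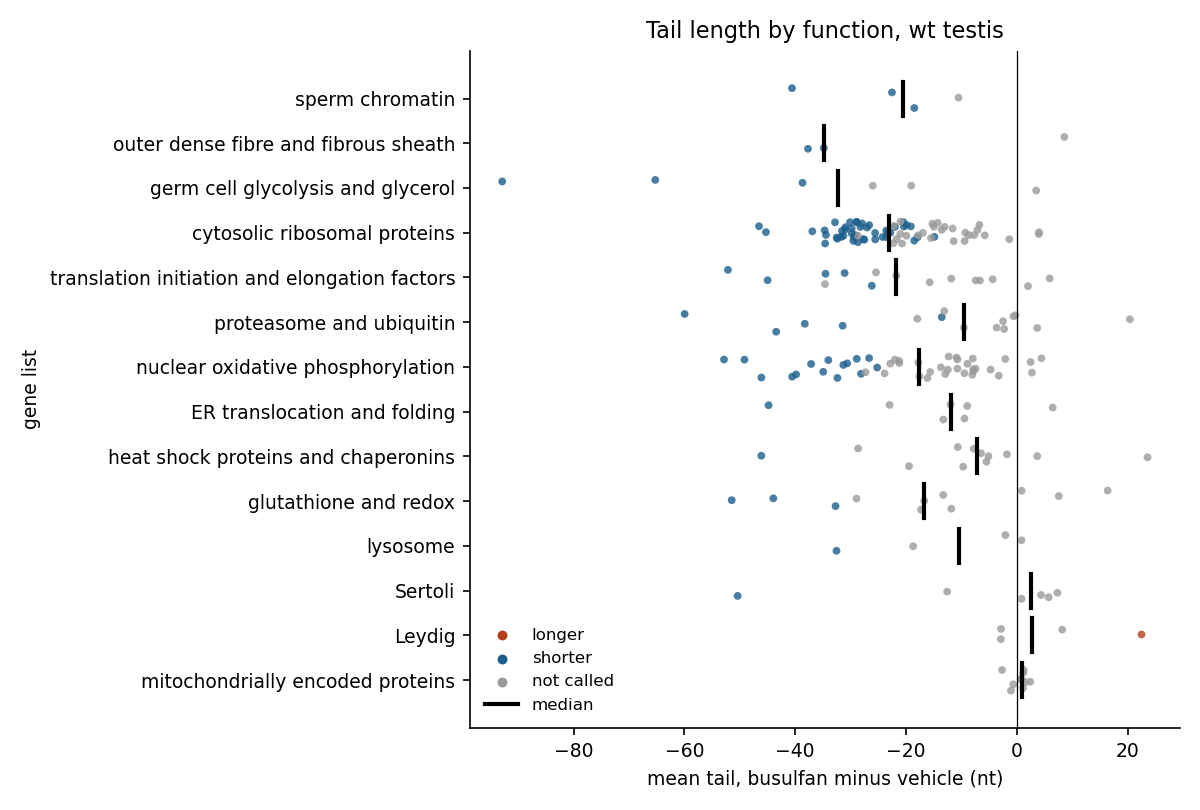
Difference in mean tail (nt, busulfan minus vehicle) for the genes of each functional group tested, with a point per gene and a black bar at the median, shorter tails in blue, longer in red and those not called in grey. Ribosomal protein genes centre on -23.1 nt, and mitochondrially encoded genes stay close to 0.

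Since most tails were shorter, tails were also compared after each sample was centred on the median over its tested transcripts. Of 527 transcripts, 51 were then longer (9.68%) and 37 shorter (7.02%). Relative to the median, the tails of Jak3, Ddx5, H3f3b, Cct2 and Ptgds stood out as longer by 45.7 to 59.0 nt, and Clu, Insl3, Odf1 and Ldhc by 26.7 to 31.8 nt, with adjusted p-values between 1.4e-04 and 0.02. Mitochondrial transcripts were longer by 20.5 to 24.4 nt on this scale for the 4 with most reads, none of which passed the test before centring. Crisp2, Pgk2 and Oaz3 stayed shorter, with differences of -82.8, -69.7 and -56.3 nt.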

How the data were processed

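Whole-testis RNA of 8 adult mice (4 groups of 2) was sequenced as direct RNA on nanopores. Per the study's methods, the authors called bases with Guppy, aligned reads to GENCODE mouse transcripts with minimap2 (2.20-r1061 in the submitters' processing notes, which also name mm10, SAMtools and DESeq2), measured tails with Nanopolish and split barcodes with DeePlexiCon. Reads with a passing tail and a confident barcode were kept. The deposited files hold raw read counts per transcript and a poly(A) tail length in nt for each read. Transcripts kept had 10 reads in both samples of at least 1 group. A deposited table of the authors' own fold changes and p-values between genotypes was not used. For every transcript and sample, the count equalled the number of reads in the tail file, in which 176 read names occurred more than once.

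From these files, counts of all 8 samples were fitted as 4 groups with edgeR 4.0.16 (quasi-likelihood F test, two-sided, TMM scaling), and busulfan was contrasted with vehicle in wild type. Mean tails of the 4 wild-type samples were fitted with limma 3.58.1 (trend in eBayes, at least 10 reads in each sample), in R 4.3.3. Adjusted p-values are Benjamini-Hochberg over all transcripts tested, with a threshold of 0.05. Both fits were run on simulated data in which most transcripts were unchanged and as many rose as fell. The real data differ from that setting, so those runs do not cover a change in most transcripts. Sample totals ranged from 50757 to 115425 reads, so that 1 read was worth between 8.66 and 19.7 RPM. No molecular identifiers were used, and intervals and bounds for a count of 0 (3 reads) cover counting error only.

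Each multiplexed library held a mouse of each group, per the labels, so the replicate numbers pair the samples by library. Deviations from group means of same-numbered wild-type samples correlated at -0.003 over 2037 transcripts, and between -0.13 and 0.25 over all pairs of groups. The samples are separate mice, and p-values measure the spread between them.

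Gene names, coordinates and last bases come from GENCODE vM21 (GRCm38), which held 2739 of 2783 transcripts, of which 2715 had a symbol in the files, and promoter windows from RefSeq (GRCm38.p6). The transcripts named were, for each list, the 4 with most reads and the 3 tested for tails with most reads, the 10 largest changes in each direction among those called, with the groups not overlapping and, for reads, at least 10 reads in each wild-type sample, the same for tails before and after centring, and Prm1, Tnp1, Ldhc, Insl3, Ptgds and Tent5c. Others are marked where they occur. The comparison, the lists and the tests were chosen with earlier results of these data known. Alternatives were DESeq2 1.42.0, other scalings, filters and minimum reads, the library as a block, centred, median, log2 or weighted tails, and leaving out each mouse.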

Additional observations from a re-analysis of the deposited data

Results flagged for a closer look

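For some transcripts the effect of busulfan differed between wild-type testes and those of Tent5c dcat/dcat mice, by a test of the difference itself over all 8 samples, with edgeR for reads and limma for tails, adjusted over all transcripts tested. The difference passed for 9 of 2783 transcripts in reads and 3 of 339 in tails. Those described in the report are given here, as the wild-type effect minus the dcat/dcat effect.

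Among spermatid transcripts, the fall in reads was larger in wild type for a few. The log2 difference was -2.94 for Prm1 (adjusted p = 0.022), -2.72 for Prm2 (0.0011), -2.82 for Tnp1 (0.027), -2.93 for Tnp2 (0.022), -2.78 for Gapdhs (0.041) and -3.40 for 4933411K16Rik (0.0011), a gene named here for its fall in reads. It was -0.42 for Oaz3, which did not pass (0.83). In dcat/dcat testes, RPM values of Prm1 were 25867 and 30672 with vehicle and 2440 and 10021 with busulfan, so that the busulfan mice of that genotype differed from each other by more than those of wild type. For Prm2 they were 19916 and 25412 with vehicle and 9564 and 10631 with busulfan, and both busulfan values were above both wild-type busulfan values. Whether germ cells had been depleted to the same extent in both genotypes was not tested.

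Insl3 tails differed by 46.5 nt between the effects (adjusted p = 0.0098). In dcat/dcat testes they were 148 and 144 nt with vehicle and 105 and 110 nt with busulfan, while in wild type they were 181 and 187 nt with busulfan. Jak3, whose listed transcript shares its last exon with Insl3, differed by 60.8 nt (0.042). Oaz3 tails differed by -51.8 nt (0.042), and in dcat/dcat testes they were 145 and 149 nt with vehicle and 112 and 127 nt with busulfan.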

How the results depend on the processing

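No call on reads or tails turned to the opposite call under any alternative. With DESeq2, 642 transcripts were higher in the busulfan testes in place of 986, and when a mean of 10 reads over the wild-type samples was asked for, 705 of the 1978 left were lower in place of 1067. Leaving out each mouse gave 1795 to 1891 calls on reads, 770 to 944 higher and 914 to 1025 lower. The median log2 fold change over all transcripts was 0.09, and -0.03 with RLE scaling. Pairing the samples by library as a replicate block gave 2033 calls on reads in place of 2053 and 209 on tails as before, with 5 longer in place of 3. Among results in the report, it changed the calls on the tails of Insl3 and H3f3b.

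In place of 209 calls on tails, there were 121 among the 212 transcripts with a minimum of 20 reads (118 shorter), which held all 108 of the 209 still tested. After centring there were 88 (37 shorter and 51 longer), of which 40 were calls of the 209 in the same direction, and 19 of the 209 changed sign. Longer tails numbered 1 on the log2 scale, 1 without the trend in eBayes and 11 of 1077 transcripts at a minimum of 5 reads. Leaving out each mouse gave 123 to 172 calls, 120 to 167 shorter and 1 to 12 longer, the fewest calls without the first busulfan mouse. Centring turned the sign of called or tested tails to 0.87 nt for Cst3, 20.3 nt for Cyp17a1, 21.8 nt for Ldhb, 4.70 nt for Prm1, 8.32 nt for Rplp1, 0.66 nt for Tnp2, 3.10 nt for Tubb4b, 9.65 nt for Ubb and 20.5 nt for mt-Co2, since it subtracts the median shift.

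The difference in tail over all reads was -49.3 nt for the median, -21.2 nt without mitochondrial transcripts and -22.3 nt with each transcript counted once, and from -27.6 to -24.3 nt leaving out each mouse. The share of tails of 30 to 120 nt rose by 20.5 percentage points with limits 10 nt higher and by 18.2 without mitochondrial transcripts. For 120 to 210 nt the difference was -20.1 points with lower limits, -23.5 with higher limits and -19.5 without mitochondrial transcripts. Tails within transcripts made up 81.8% of the shift without mitochondrial transcripts, and 104.8% when at least 10 reads in each sample were also asked for. Among single transcripts named, 62 of 1553 comparisons on reads lost a call and 17 gained one, as did 65 and 51 of 1096 on tails. Other causes of these changes were not tested. With 2 mice per group and at most 115425 reads in a sample, small changes and rare transcripts were out of reach.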
